A study of Mus musculus with 6 samples.

Results

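Fatty acid elongation lengthens acyl-CoA chains in the endoplasmic reticulum (ER) membrane, and the liver uses it both for fat made from carbohydrate and for the long polyunsaturated chains of membrane phospholipids. Each turn of the cycle begins with a condensation of the acyl-CoA with malonyl-CoA by an elongase of the Elovl family, which sets the chain length and saturation that can be extended. The product is then reduced by Hsd17b12, dehydrated by an enzyme of the Hacd family and reduced again by Tecr, and these later enzymes serve all elongases. The 10 genes described here are the elongases *Elovl1*, *Elovl2*, *Elovl3*, *Elovl5*, *Elovl6* and *Elovl7* and the later enzymes *Hsd17b12*, *Hacd2*, *Hacd3* and *Tecr*, out of 35540 named genes in the liver table. They were selected on membership of the cycle with earlier results of the same livers known, so their differences between the genotypes below are a description of these mice and are not a test.

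RNA was measured by sequencing of whole liver from 6 Surf4 fl/fl mice, 3 with the Alb-Cre transgene (Alb-Cre+) and 3 littermates without it (Alb-Cre-, the controls). In all 6 mice exon 2 of both *Surf4* alleles lies between loxP sites. The Cre recombinase is driven by the albumin promoter, which is active in hepatocytes, so that other liver cells keep the gene. *Surf4* encodes a cargo receptor that carries secreted proteins out of the ER. Both genotypes had males as replicates 1 and 3 and a female as replicate 2, all on chow. The methods of the study state an overnight fast before samples were taken. The age of the mice is not given in the sources used here.

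Values are TPM, the share of a transcript in 1000000 transcripts after correction for its length, summed over the transcripts of a gene. TPM hold no read number, so the depth behind a value is unknown. *Surf4* was at 59.0, 71.8 and 54.3 TPM in Alb-Cre+ mice 1, 2 and 3 and at 92.5, 94.5 and 92.5 TPM in the controls, and the ranges did not overlap. Reads outside exon 2 still count toward this sum, and so do reads from the liver cells that keep the gene, so the sum does not measure excision. The 4 Y chromosome genes examined (*Ddx3y*, *Eif2s3y*, *Kdm5d* and *Uty*) were at 1.83 TPM or more in every male and at 0.0637 TPM or less in both females. The 10 hepatocyte markers summed to between 67951 and 86563 TPM in Alb-Cre+ mice and between 87870.0 and 92651 TPM in controls. *Apoa1*, *Ttr* and *Apoh* were lower in every Alb-Cre+ mouse than in any control, as were 2.71% of all genes tested. *Apoa1* alone was at 8802 to 10222 TPM in Alb-Cre+ mice and at 15764 to 20844 TPM in controls. Log2 differences, Alb-Cre+ minus control, were below zero for 7 of the 10 markers. They were above zero for *Cps1*, *Hnf4a* and *Serpina1c*, at 0.19, 0.08 and 0.02. The part of this list in the differences below was not tested. Summed Kupffer cell markers were at 168 to 633 TPM in Alb-Cre+ mice and at 218 to 580 TPM in controls. The endothelial, stellate cell, cholangiocyte and lymphocyte lists also overlapped between the genotypes.

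The elongases share one recognizable feature, a box of clustered histidine codons that lies in the catalytic center of the enzyme. The stretches below are shown because the elongases fall into 3 pairs by their likeness there. Each was read from the GENCODE M21 sequence of the most abundant coding transcript, 5′ to 3′, and spans 45 bases with the 15 bases of the box in capitals.
Elovl1, codons 136 to 150: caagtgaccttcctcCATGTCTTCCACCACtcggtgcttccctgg
Elovl7, codons 142 to 156: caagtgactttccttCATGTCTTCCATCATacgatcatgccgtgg
Elovl2, codons 141 to 155: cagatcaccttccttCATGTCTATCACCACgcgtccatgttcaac
Elovl5, codons 138 to 152: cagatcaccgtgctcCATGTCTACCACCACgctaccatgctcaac
Elovl3, codons 141 to 155: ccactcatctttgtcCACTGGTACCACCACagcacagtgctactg
Elovl6, codons 136 to 150: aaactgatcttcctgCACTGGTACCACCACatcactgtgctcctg

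*Elovl2* and *Elovl5*, both elongases of polyunsaturated chains, had 38 of the 45 bases in common, the highest identity of the 15 elongase pairs at 84.4%. *Elovl3* and *Elovl6* had 36 of 45 in common and all 15 bases of the box, and *Elovl1* and *Elovl7* had 35 in common. The lowest identity was 46.7%, between *Elovl3* and *Elovl7*. Between the pairs, likeness did not follow acyl chain. *Elovl1* extends saturated and monounsaturated chains, yet had 28 bases in common with both *Elovl2* and *Elovl5*, 22 with *Elovl3* and 25 with *Elovl6*. The coding parts were of similar length, from 267 codons in *Elovl6* to 299 in *Elovl5*. No word of 31 bases was shared by the annotated transcripts of any of the 45 pairs of the 10 members, so that reads spanning such a word could not be split between members.

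In GRCm38 coordinates of GENCODE M21, *Elovl2* lies at chr13:41182381-41220405 on the minus strand and *Elovl7* on the plus strand of the same chromosome at chr13:108214404-108285683. *Elovl5* is at chr9:77917364-77984519 on the plus strand and *Hacd3* at chr9:64986983-65021693 on the minus strand. The remaining elongases are *Elovl1* at chr4:118428093-118432953, *Elovl3* at chr19:46131897-46135694 and *Elovl6* at chr3:129532355-129638495, all on the plus strand. *Hsd17b12* is at chr2:94032689-94157964 on the minus strand, *Tecr* at chr8:83571698-83607971 on the minus strand and *Hacd2* at chr16:35022428-35109177 on the plus strand.

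Control livers held far more RNA of the polyunsaturated chain elongases than of any other elongase. By mean TPM the order in controls was *Elovl5*, *Elovl2*, *Tecr*, *Hacd3*, *Hsd17b12*, *Hacd2*, *Elovl1*, *Elovl3*, *Elovl6* and *Elovl7*, from 311 ± 182 TPM (SD, n = 3) to 0.213 ± 0.0622 TPM. Ranges of neighbors were separate between *Elovl2* and *Tecr*, between *Hacd2* and *Elovl1*, between *Elovl1* and *Elovl3* and between *Elovl6* and *Elovl7*, and overlapped at all other steps of this order. In Alb-Cre+ livers *Tecr* came first at 137 ± 22.0 TPM, followed by *Elovl5*, *Hacd3*, *Elovl2*, *Hsd17b12*, *Hacd2*, *Elovl3*, *Elovl1*, *Elovl6* and *Elovl7*, and only the last 2 steps were separate. The place of *Hacd2* depends on the annotation, since 65.1% to 69.4% of its TPM in each mouse was assigned to a retained intron transcript of 389 bases and its coding transcript held a mean of 21.3 TPM. Across all 6 libraries the mean normalized count that the authors deposited was 75549 for *Elovl2*, 62341 for *Elovl5* and 66.1 for *Elovl7*, so *Elovl7* rests on the fewest reads. The spread of the members' levels over the mice appears in the plot of TPM by mouse.

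**Figure D1:**
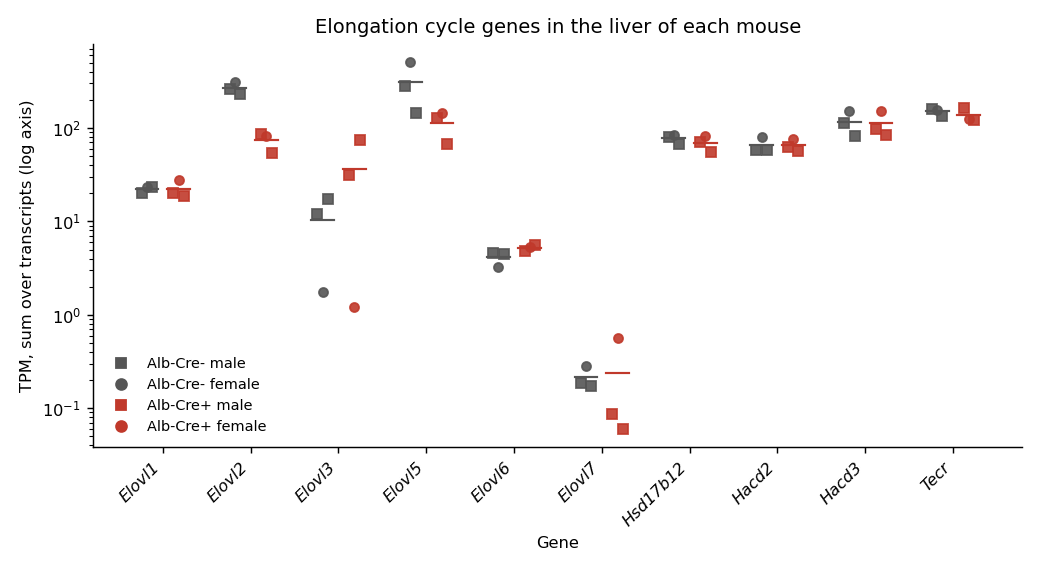
TPM of the 10 members (log axis) in each of the 6 livers, with controls in gray, Alb-Cre+ mice in red, males as squares, females as circles and a bar at the mean of each genotype. *Elovl2* has a control mean of 269 and an Alb-Cre+ mean of 74.5 with no overlap, and both females are the lowest mice for *Elovl3* and the highest for *Elovl7*.

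Both elongases of polyunsaturated chains were lower in every Alb-Cre+ liver than in any control, and *Elovl2* had the largest log2 difference of the 10 members. *Elovl2*, which extends the longest polyunsaturated chains on the way to docosahexaenoic acid, was at 264, 312 and 230 TPM in controls 1, 2 and 3. It was at 86.2, 83.0 and 54.2 TPM in Alb-Cre+ mice 1, 2 and 3. Every Alb-Cre+ mouse was therefore far below every control, and the spread within a genotype was small beside the gap. The ratio of means was 3.61, and within pairs of the same number the control was 3.07, 3.75 and 4.25 times the Alb-Cre+ mouse. The log2 difference in log2(TPM + 0.1) was -1.87 (SE 0.21), with a limma p of 4.47e-05 before adjustment and 0.456 after Benjamini-Hochberg adjustment over 14189 genes. Fitting the replicate block, a term for each replicate number that compares mice of the same number, moved that adjusted p to 0.058, also above the threshold of 0.01. Because this contrast was known when *Elovl2* was chosen, these p-values are a description and not a test. In bulk tissue fewer cells that express a gene and less RNA per cell cannot be told apart.

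*Elovl5*, which acts on the shorter polyunsaturated chains and supplies substrate to Elovl2, varied more among mice. Controls 1, 2 and 3 had 280, 506 and 146 TPM of *Elovl5*. Alb-Cre+ mice 1, 2 and 3 had 128, 144 and 67.3 TPM. The ranges did not overlap, but they nearly touched, because the female Alb-Cre+ mouse and the male control 3 differed by little. Within pairs of the same number, which compare males with males and the female with the female, the control was 2.18, 3.51 and 2.18 times the Alb-Cre+ mouse. The log2 difference was -1.35 (SE 0.48, and 0.16 with the replicate block), with a limma p of 0.0245 before adjustment and 0.000295 with the block. As for *Elovl2*, p-values of this contrast are given as a description and not as a test. The adjusted p of limma was 1 without the block and 0.281 with it.

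The remaining elongases did not follow this pattern. *Elovl6*, the elongase that turns palmitate into stearate in newly made fat, was at 4.58, 3.27 and 4.49 TPM in controls 1, 2 and 3. In Alb-Cre+ mice it was at 4.81, 5.30 and 5.56 TPM, above every control by a narrow margin. The log2 difference was 0.35 (SE 0.21), and the ranges overlapped once TPM were divided by median of ratios size factors. *Elovl1*, an elongase of saturated and monounsaturated very long chains that go into sphingolipids, had 20.1, 23.3 and 23.2 TPM in controls and 20.2, 28.0 and 18.7 TPM in Alb-Cre+ mice. Its ranges overlapped fully, and the 95% interval of its log2 difference ran from -0.44 to 0.42. *Elovl7*, which extends saturated chains, was at 0.184, 0.285 and 0.171 TPM in controls and at 0.0875, 0.564 and 0.0599 TPM in Alb-Cre+ mice. At this level the genotype ranges overlapped, and the 2 females had the highest values. *Elovl3*, an elongase of saturated and monounsaturated chains, had 12.0, 1.73 and 17.3 TPM in controls 1, 2 and 3. It had 31.5, 1.21 and 75.3 TPM in Alb-Cre+ mice 1, 2 and 3. The difference between the sexes thus exceeded that between the genotypes, and the 95% interval of the genotype difference of *Elovl3* ran from -2.63 to 4.64 on the log2 scale, and from -0.22 to 2.23 with the replicate block.

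The later enzymes of the cycle showed no separation by genotype. *Hsd17b12*, the ketoacyl-CoA reductase of the cycle, had 80.8, 85.0 and 66.7 TPM in controls and 71.4, 82.4 and 55.8 TPM in Alb-Cre+ mice. *Hacd3*, a dehydratase, had 114, 153 and 83.1 TPM in controls and 98.6, 154 and 85.0 TPM in Alb-Cre+ mice. *Tecr*, the enoyl-CoA reductase, had 160, 157 and 135 TPM in controls and 162, 125 and 123 TPM in Alb-Cre+ mice. All 3 genes had overlapping ranges and log2 differences between -0.16 and -0.06. *Hacd2*, the other dehydratase, had 58.1, 79.3 and 57.6 TPM in controls and 62.6, 76.1 and 57.4 TPM in Alb-Cre+ mice. Its log2 difference was 0.01, with a 95% interval from -0.40 to 0.43. The 95% interval was -0.58 to 0.26 for *Hsd17b12*, -0.74 to 0.62 for *Hacd3* and -0.49 to 0.21 for *Tecr*. With the replicate block the intervals were narrower, at -0.22 to 0.25 for *Hacd2*, -0.40 to 0.08 for *Hsd17b12*, -0.30 to 0.19 for *Hacd3* and -0.40 to 0.12 for *Tecr*.

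Of the 10 members, 0 had an adjusted p under 0.01 between the genotypes, beside 0% of the 14189 genes tested. At an unadjusted p under 0.05, 2 members passed, *Elovl2* and *Elovl5*, both lower, where 250 genes or 1.76% passed among all genes. With the replicate block the same members passed, 2 of 10, where 666 genes or 4.69% did among all genes. The ranges of *Elovl2* and *Elovl5* lay below those of controls, as did 2.71% of all genes, and the range of *Elovl6* lay above, as did 2.18%. Because this contrast was known when the members were chosen, nothing is read from these counts. The median log2 difference was -0.10 over the members and 0.00 over all genes tested. The estimates and the values of the single pairs are drawn in the plot of genotype differences.

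**Figure D2:**
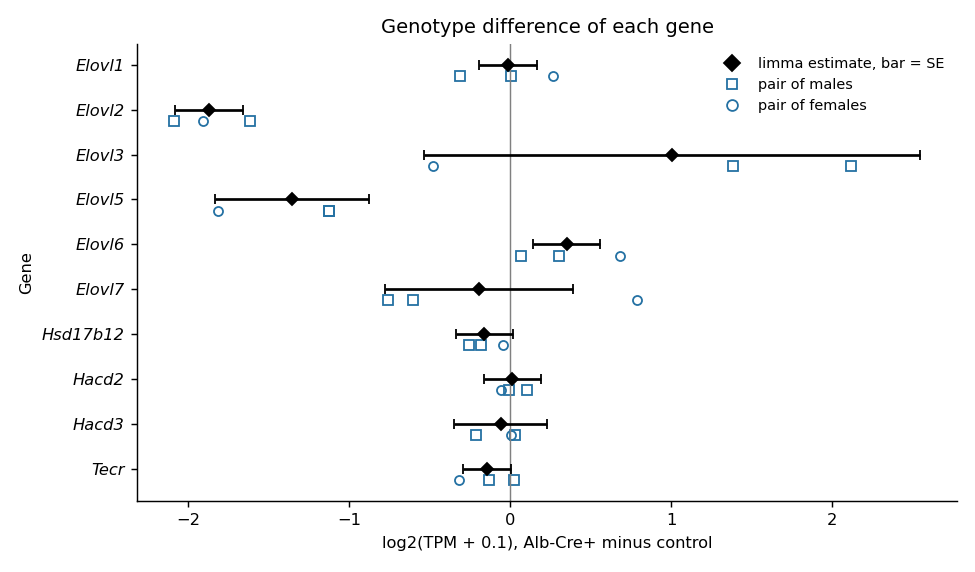
Log2 difference in log2(TPM + 0.1), Alb-Cre+ minus control, for each member, with the limma estimate and its standard error in black and the 3 pairs of same-numbered mice in blue (squares male, circle female). All 3 pairs lie below zero for *Elovl2*, *Elovl5* and *Hsd17b12*, and the female pair lies opposite to both male pairs for *Elovl3* and *Elovl7*.

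Ratios between members within 1 mouse do not depend on the scaling between mice. *Elovl2* over *Hsd17b12*, an enzyme that acts after it, was 3.27, 3.67 and 3.45 in controls and 1.21, 1.01 and 0.971 in Alb-Cre+ mice. *Elovl2* over *Tecr* was 1.65, 1.99 and 1.71 in controls and 0.530, 0.662 and 0.439 in Alb-Cre+ mice. Both ratios were narrow within a genotype and far apart between the genotypes. *Elovl5* over *Hsd17b12* was 3.47, 5.95 and 2.19 in controls and 1.80, 1.75 and 1.21 in Alb-Cre+ mice, which did not overlap. *Elovl5* over *Tecr* was 1.75, 3.23 and 1.08 in controls and 0.790, 1.15 and 0.545 in Alb-Cre+ mice, which overlapped. *Elovl2* over *Elovl5* was 0.944, 0.616 and 1.57 in controls and 0.672, 0.577 and 0.806 in Alb-Cre+ mice, and these values overlapped too.

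The 6 elongases together held 581, 846 and 422 TPM in controls 1, 2 and 3 and 271, 262 and 221 TPM in Alb-Cre+ mice. The makeup of this pool is given as shares, which are tied to each other. Lower *Elovl2* and *Elovl5* raise the other shares even where the TPM of those elongases are unchanged. *Elovl2* made up 45.5%, 36.8% and 54.6% of the elongase TPM in controls and 31.8%, 31.7% and 24.5% in Alb-Cre+ mice, a difference of means of -16.3 percentage points. *Elovl5* held 47.6 ± 12.5% in controls and 44.2 ± 12.5% in Alb-Cre+ mice (SD, n = 3), a difference within the spread between mice. *Elovl1* took up 3.46%, 2.75% and 5.50% in controls and 7.45%, 10.7% and 8.44% in Alb-Cre+ mice, although its TPM overlapped. *Elovl3* held between 0.205% and 4.10% in controls, and in Alb-Cre+ mice it held 11.6%, 0.463% and 34.1%, with the low value in the female. *Elovl6* made up at most 1.07% in a control and at least 1.77% in an Alb-Cre+ mouse. The bars of elongase shares show the makeup in each mouse.

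**Figure D3:**
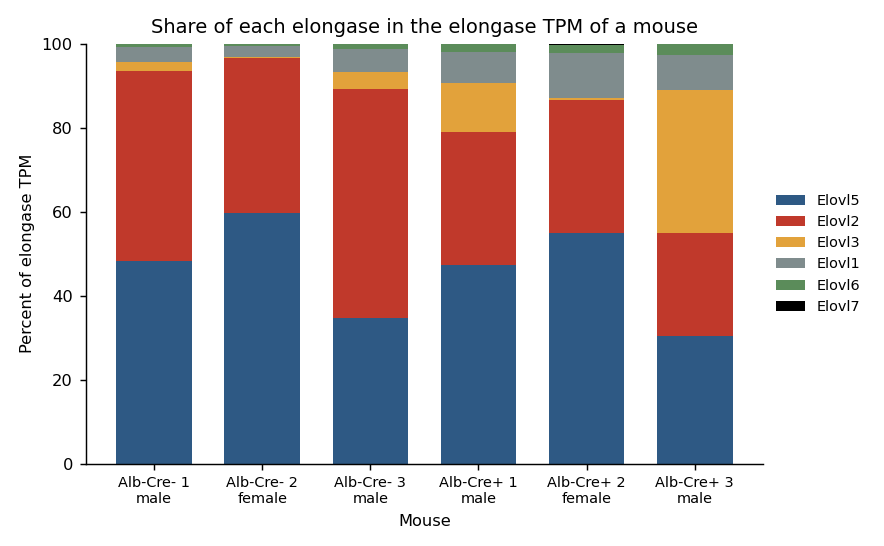
Share of each elongase in the summed TPM of the 6 elongases (percent, stacked from 0 to 100) for each mouse, with the sex under the name. *Elovl2* takes 36.8% to 54.6% in controls and 24.5% to 31.8% in Alb-Cre+ mice, and *Elovl3* reaches 34.1% in Alb-Cre+ mouse 3.

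Most of the TPM of *Elovl2* and *Elovl5* came from a single transcript each, so their values do not hinge on isoform assignment. The main *Elovl2* transcript of 3840 bases held 95.7% to 98.4% of the gene's TPM in each mouse, and the main *Elovl5* transcript of 2782 bases held 97.8% to 99.5%. *Elovl3* had a main transcript with 85.4% to 95.2%. *Elovl1* was split over 7 transcripts, and the largest of them held 33.0% to 47.8% of its TPM. *Hacd3* has a single transcript in the table.

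The 165 bases upstream of *Elovl2* and *Elovl5* are shown because these members were lower together. They come from the RefSeq promoter windows of GRCm38.p6 and run from 170 to 6 bases before the start of the gene on its own strand, chr13:41220409-41220573 on the minus strand for *Elovl2* and chr9:77917195-77917359 on the plus strand for *Elovl5*. Capitals mark GC boxes, with the letters GGGCGG. They also mark CCAAT boxes, printed as ATTGG where they lie on the other strand, and E boxes, with the letters CACGTG. All were searched on both strands, and no overlap between them was found in these stretches.
Elovl2: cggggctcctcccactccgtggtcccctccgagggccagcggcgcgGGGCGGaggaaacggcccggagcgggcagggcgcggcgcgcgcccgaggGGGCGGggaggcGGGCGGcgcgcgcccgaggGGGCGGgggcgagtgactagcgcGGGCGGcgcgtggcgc
Elovl5: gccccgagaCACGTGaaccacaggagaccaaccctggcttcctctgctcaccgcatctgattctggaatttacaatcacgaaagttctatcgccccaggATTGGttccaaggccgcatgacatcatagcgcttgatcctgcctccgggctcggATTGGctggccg

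The 2 stretches had no marked motif in common. *Elovl2* held 5 GC boxes and no CCAAT or E box, at 85.5% G and C, and *Elovl5* held 2 CCAAT boxes and 1 E box and no GC box, at 57.0% G and C. *Elovl2* has another RefSeq window, chr13:41220113-41220412, which is not printed. Its 250 upstream bases held no GC, CCAAT or E box, at 79.6% G and C. Over the 250 bases upstream in all 32851 windows of the table, 32.7% held a GC box, 33.8% a CCAAT box and 6.02% an E box. The letters TCACNCCAC, after a sterol regulatory element, were in 1.05% of all windows and in none of the 11 windows of the 9 members with an entry. A match or its absence describes only these letters in this window.

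The genes whose levels over the 6 mice were most like those of *Elovl2* were found among 7052 genes whose mean was 5 TPM or more. The measure was the root mean square difference between centered log2(TPM + 0.1) values over 6 mice. For *Elovl2* they were *Fabp2* at 0.15, *Fads2* at 0.23, *1810055G02Rik* at 0.38, *Atf5* at 0.38 and *Pgm3* at 0.40. *Fabp2*, a fatty acid binding protein, was at 144, 164 and 106 TPM in controls and at 49.0, 47.8 and 34.9 TPM in Alb-Cre+ mice. *Fads2*, the desaturase that opens polyunsaturated chain synthesis, was at 189, 218 and 174 TPM in controls and at 73.2, 88.5 and 52.5 TPM in Alb-Cre+ mice. All 5 genes had every Alb-Cre+ mouse below every control, as did 2.71% of all genes. They were picked for likeness to *Elovl2*, which has this pattern, so nothing is read from it. For *Elovl5* the nearest genes were *Ugt1a5* at 0.27, *Bdh1* and *Ldha* at 0.32, *1810055G02Rik* at 0.37 and *Fads1* at 0.39. Of these, *Ugt1a5*, *Bdh1* and *Ldha* had overlapping TPM ranges, and *1810055G02Rik* and *Fads1* were lower in every Alb-Cre+ mouse. *Ugt1a5* shares its last exons with the other *Ugt1a* genes, so its level is uncertain. *Fads1*, the desaturase that follows Elovl5, had 83.2, 121 and 81.4 TPM in controls and 56.3, 55.4 and 27.5 TPM in Alb-Cre+ mice. These genes are listed for their likeness over the 6 values, all points coming from the same libraries, and share of function is not implied.

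Around the cycle, genes were taken from lists of fatty acid metabolism, and 0 genes of any of these lists had an adjusted p under 0.01 between the genotypes. These lists too were chosen with earlier results of the same livers known, so nothing is read from the counts below. Of the other genes of the cycle, *Elovl4*, which makes the very long chains of retina and skin, was at 0.0108 TPM or less in every liver, and *Tecrl*, a relative of *Tecr*, was listed at 0 in all 6. *Hacd1* was at 13.3 to 16.3 TPM in controls and at 14.4 to 20.6 TPM in Alb-Cre+ mice, and *Hacd4* was at 0.296 to 1.23 TPM over all 6 mice, so the genotypes overlapped for both. Of the 6 desaturases tested, 2 had an unadjusted p under 0.05, both lower in Alb-Cre+ mice, *Fads1* and *Fads2*, with log2 differences of -1.08 (SE 0.31) and -1.47 (SE 0.21), beside 1.76% of all genes in either direction. *Scd1*, the desaturase that makes monounsaturated chains, was at 71.1, 51.6 and 248 TPM in controls 1, 2 and 3 and at 16.0, 13.3 and 79.7 TPM in Alb-Cre+ mice. The ranges overlapped, and within pairs of the same number the control was 4.45, 3.88 and 3.12 times the Alb-Cre+ mouse. The log2 difference of *Scd1* was -1.91 (SE 0.81, and 0.13 with the replicate block), and the adjusted p of limma was 1 without the block and 0.058 with it. *Scd3*, at 0.0589 TPM or less, was lower in every Alb-Cre+ mouse and was left out of the test as too low. Of the 9 genes of malonyl-CoA and palmitate supply that were tested, 2 had an unadjusted p under 0.05, both higher. *Fasn*, which makes palmitate, was at 4.41, 8.76 and 3.68 TPM in controls and at 16.1, 13.5 and 11.1 TPM in Alb-Cre+ mice. *Acacb*, an acetyl-CoA carboxylase, had 3.85, 4.01 and 3.19 TPM in controls and 6.28, 6.35 and 4.83 TPM in Alb-Cre+ mice. In these mice *Fasn* and *Acacb* were higher, while *Elovl2* was lower. *Elovl6* was above every control in TPM by a narrow margin, with a log2 difference of 0.35 (SE 0.21). Its ranges overlapped after median of ratios scaling.

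Among the 13 regulators of elongase genes, 2 had an unadjusted p under 0.05, both higher in Alb-Cre+ mice. The choice of the lists was the same here, so again nothing is read from their counts. *Thrsp*, which promotes fatty acid synthesis, was at 15.1, 19.7 and 15.4 TPM in controls and at 87.0, 31.1 and 86.2 TPM in Alb-Cre+ mice. *Mid1ip1*, its binding partner and itself an activator of acetyl-CoA carboxylase, had a log2 difference of 0.91 (SE 0.29). The transcripts of the factors themselves overlapped between the genotypes. *Srebf1*, which drives the lipogenic genes and was looked up with its values in view, was at 8.85, 14.3 and 6.62 TPM in controls and 14.8, 9.10 and 5.84 TPM in Alb-Cre+ mice. Among the peroxisomal genes that shorten chains, 0 of the 8 reported had an unadjusted p under 0.05, and *Scp2* was lower in every Alb-Cre+ mouse, with a log2 difference of -0.31 (SE 0.16). Of the 7 acyl-CoA synthetases tested and the 10 users of long chains, 0 and 1 had an unadjusted p under 0.05. The 1 was *Mfsd2a*, which imports docosahexaenoic acid as a lysophospholipid and is named here after its values were seen, at 96.8, 190.1 and 51.8 TPM in controls and 66.0, 24.6 and 14.7 TPM in Alb-Cre+ mice, with overlapping ranges. Of the synthetases *Slc27a5* was lower in every Alb-Cre+ mouse, with a log2 difference of -0.16 (SE 0.12). The ranges of *Scp2* and *Slc27a5* overlapped after median of ratios scaling. With the replicate block the share of all genes at an unadjusted p under 0.05 rose from 1.76% to 4.69%. The count for malonyl-CoA and palmitate supply stayed at 2. Counts were higher at 3 desaturases (*Scd1* in addition, lower) and 4 regulators (*Mlxipl* higher and *Ppara* lower in addition). They were also higher at 2 peroxisomal genes (*Abcd3* and *Scp2*), 1 synthetase (*Acsl5*, lower) and 2 users of long chains (*Cers4* in addition, lower). These added genes are named after their values were seen. Median log2 differences were -0.55 for the desaturases, 0.09 for malonyl-CoA and palmitate supply, -0.03 for the regulators, 0.13 for the peroxisomal genes, -0.08 for the synthetases and -0.07 for the users of long chains, beside 0.00 over all genes. The plot of elongases beside these genes shows which mice carry each difference.

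**Figure D4:**
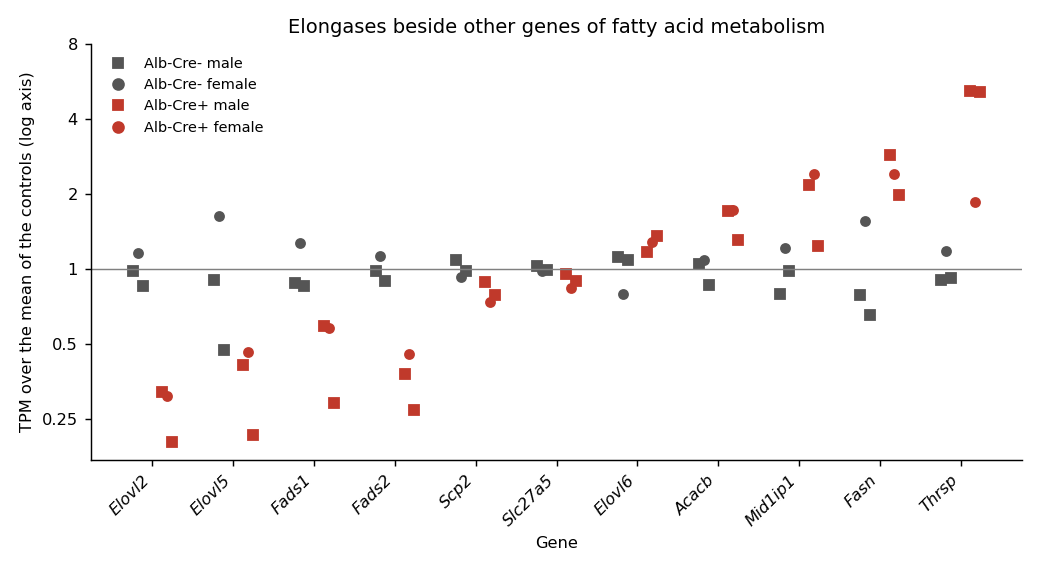
TPM of each mouse divided by the mean of the 3 controls (log axis), with controls in gray, Alb-Cre+ mice in red, males as squares and females as circles. Drawn are *Elovl2*, *Elovl5*, *Elovl6* and the reported and tested genes of the fatty acid lists whose genotype ranges did not overlap. *Scd3*, which was too low for the test, is not drawn. The red points of *Elovl2*, *Elovl5*, *Fads1* and *Fads2* lie below the gray ones, and those of *Elovl6*, *Acacb*, *Mid1ip1*, *Fasn* and *Thrsp* lie above. The ranges of *Elovl6* overlapped after median of ratios scaling.

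Sex was not used to choose the members, so it could be tested, with genotype in the limma model and 4 males against 2 females. Only replicate 2 of each genotype is female, so that sex and replicate number cannot be told apart. Of all genes, 73 or 0.514% passed an adjusted p of 0.01, and 0 of the 10 members did. At an adjusted p under 0.05, 2 members passed, *Elovl3* and *Hacd3*, beside 7.18% of all genes, and at an unadjusted p under 0.05, 5 members passed, beside 28.7%. TPM of most genes were lower in males, with a median log2 difference of -0.26 over all genes and of -0.31 over the members. After division by median of ratios size factors the median over all genes was 0.01, so sex differences of the members are given in TPM and again after this scaling.

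*Elovl3* was the member with the strongest sex difference. Males had 31.5, 75.3, 12.0 and 17.3 TPM and females had 1.21 and 1.73 TPM, so that all 4 males were above both females. The mean was 34.0 ± 28.7 TPM in males (SD, n = 4) and 1.47 ± 0.368 TPM in females (SD, n = 2). The log2 difference was 4.10 (SE 0.56) with an adjusted p of 0.0155 in limma, and it was 4.37 (SE 0.64) with an adjusted p of 0.023 after median of ratios scaling. Over all genes 5% had every male above every female. *Elovl3* is known for higher levels in male than in female mouse liver and for a daily rhythm. The genes most like *Elovl3* over the 6 mice were *Mup11* at 0.35, *Mup2* at 0.45, *Mup9* at 0.54, *Mup19* at 0.64 and *Cyp2d9* at 0.78. The first 4 of these are major urinary protein genes, near-identical copies between which reads can be split, and *Cyp2d9* is a cytochrome P450 of male liver. *Mup11* was at 5071, 271 and 11605 TPM in Alb-Cre+ mice 1, 2 and 3 and at 3769, 289 and 3517 TPM in controls. Like *Elovl3*, it was lowest in both females and highest in Alb-Cre+ mouse 3. Of the 10 genes listed as male-biased in liver, 6 passed the sex test at an adjusted p under 0.01, all higher in males, and of the 10 listed as female-biased 3 did, all lower. Their sums in males were 9454 to 21680 TPM for the male list, with the highest again in Alb-Cre+ mouse 3. Of the 15 clock genes in the table, 0 had an unadjusted p under 0.05 between the genotypes and 1 had with the replicate block (*Arntl*), with *Clock* alone outside the control range in every Alb-Cre+ mouse, at 5.46 to 6.42 TPM against 6.44 to 6.78 TPM. The ranges of *Clock* overlapped after median of ratios scaling. The part of the male program or of the hour of collection in the *Elovl3* values was not tested.

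Other members were lower in males. *Hacd3* had 83.1 to 114 TPM in males and 153 and 154 TPM in females, with no overlap, a log2 difference of -0.70 (SE 0.15) and an adjusted p of 0.0478 in limma. After median of ratios scaling the difference was -0.41 (SE 0.13) and the adjusted p was 0.102. *Elovl5* had a difference of -0.97 (SE 0.36) with overlapping ranges, and -0.69 after rescaling. *Elovl7* had a difference of -1.21 (SE 0.41), and -1.004 (SE 0.37) after rescaling, and every male was below both females in both scalings. By root mean square difference the genes nearest to *Elovl7* were *Tmem176a*, *Tsc22d4*, *Tmem176b* and *Ang* at 0.16 and *Sptlc2* at 0.17. *Elovl7* itself was at 0.564 TPM or less in every mouse. From its most abundant transcript alone the sex difference was -0.66 (SE 0.36), with an adjusted p of 0.30 in limma. Summed Kupffer cell markers were also lower in males, at 168 to 250 TPM against 580 and 633 TPM in females. Of these 8 genes, 7 had an adjusted p under 0.05 in limma, beside 7.18% of all genes. Each of them kept every male below both females after median of ratios scaling. Summed endothelial markers were at 103 to 178 TPM in males and 219 and 236 TPM in females. After the scaling *Clec4g*, *Fcgr2b*, *Lyve1*, *Oit3* and *Stab2* overlapped between the sexes, while *Pecam1* stayed separate. Summed stellate cell markers were at 146 to 292 TPM in males and 363 and 384 TPM in females. Summed cholangiocyte markers, at 15.3 to 60.2 TPM in males and 36.7 and 39.8 TPM in females, overlapped, and summed lymphocyte markers were at 2.03 to 3.71 TPM in males and 3.54 and 5.98 TPM in females. The sums of all these lists are in TPM and were not rescaled. The part of other cell types in these sex differences was not tested.

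All males were below both females for *Elovl1*, *Elovl7*, *Hsd17b12*, *Hacd2* and *Hacd3*, as for 36.6% of all genes. After median of ratios scaling this held for *Elovl7* and *Hacd3*, the ranges of *Elovl1*, *Hsd17b12* and *Hacd2* overlapped, and those of *Elovl6* were separate, with all males above both females. *Hacd2* had a difference of -0.40 (SE 0.10), and -0.11 after rescaling. The differences of *Elovl1*, *Elovl2* and *Hsd17b12* were -0.32, -0.31 and -0.30 and came to -0.03, -0.02 and -0.01 after median of ratios scaling. *Elovl6* and *Tecr* were at 0.21 and 0.04 and came to 0.49 and 0.33. Both scalings are drawn in the plot of sex differences.

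**Figure D5:**
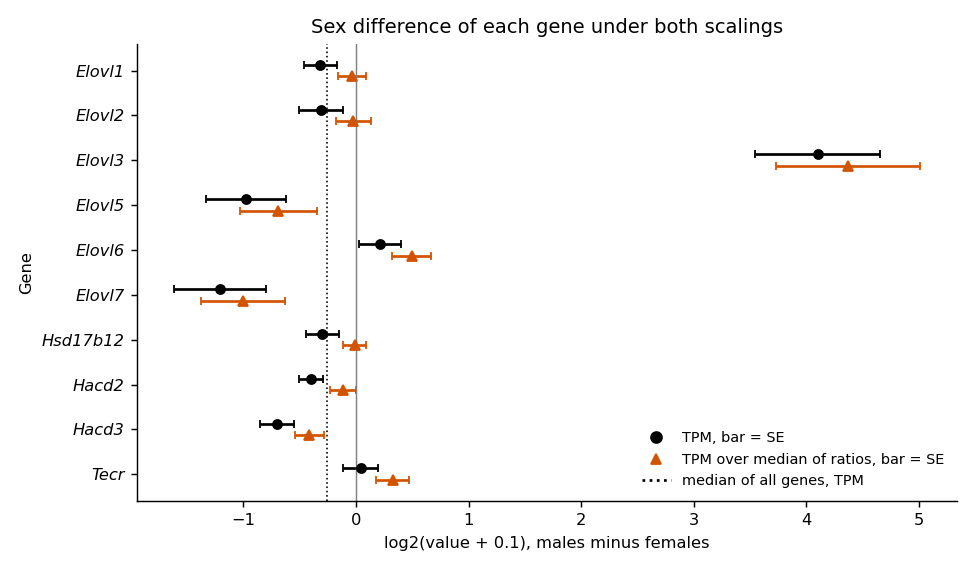
Log2 difference, males minus females, for each member in TPM (black circles) and in TPM divided by median of ratios size factors (orange triangles), with bars of 1 standard error and the median of all genes in TPM as a dotted line at -0.26. *Elovl3* lies at 4.10 and 4.37, and *Elovl1*, *Elovl2* and *Hsd17b12* lie near the dotted line in TPM and near zero after rescaling.

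Whether the genotype difference differed between the sexes was tested with an interaction term, which rests on 1 female of each genotype. No member and no gene of the 14189 passed an adjusted p of 0.01, 0%, and 862 genes or 6.08% had an unadjusted p under 0.05. Among the members *Elovl3* and *Elovl7* had one, with adjusted p of 0.775 in limma for both. For *Elovl2* the pairs of males differed by -1.62 and -2.08 and the pair of females by -1.91 on the log2 scale, so the sexes lay together, and the interval of the interaction ran from -1.25 to 1.14. *Elovl5* differed by -1.13 and -1.12 in the pairs of males and by -1.81 in the pair of females. In males *Elovl3* was higher in the Alb-Cre+ mouse of each pair, by 1.38 and 2.12, and in the females it was lower, by -0.48.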

How the data were processed

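Liver RNA of 6 mice was sequenced, 1 library a mouse. The authors deposited TPM per transcript, and the methods name alignment with STAR to GRCm38.92 and quantification with RSEM, while the table itself is labelled as salmon output; versions are not given in the sources used here. Of its transcripts shared with GENCODE M21, 99.3% carry a version number 1 higher, so positions and sequences come from GENCODE M21 and RefSeq and not from the annotation behind the table. A second deposited table holds the authors' DESeq2 comparison (fold changes and p-values, not used here), of which only the mean normalized count was taken.

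Transcript values were added up by gene symbol, leaving out 163 of 116748 transcripts without one (0.0515% to 0.0887% of TPM). The 14189 genes whose mean reached 0.1 TPM, all 10 members among them, entered limma (version 3.58.1, R 4.3.3) as log2(TPM + 0.1), with a trend on expression level, for genotype, for sex with genotype, and for their interaction, with Benjamini-Hochberg adjustment over all genes and a threshold of 0.01. Fold changes on this scale are understated for low genes. TPM keep no depth, so no interval from counting is given, and the p-values measure the spread between mice. Same-numbered mice deviated together from their genotype means (r = 0.37, 0.59 and 0.37 across genes, which are not independent replicates), so the replicate block was fitted as well. Males of unlike number had r = 0.09 and 0.17, and a female with a male of the other genotype had -0.44 to -0.35. Deviations from a genotype mean sum to zero within the genotype, so a positive r for same-numbered mice pulls that of unlike numbers down. Nothing is therefore read from the negative values. Replicate 2 is the female of both genotypes, so the part of sex in these values cannot be told apart from that of the number. The numbers are those of the labels, which do not say what a number stands for.

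The members and all gene lists were chosen with earlier results of these data known. A listed gene was taken out of its list and is not reported here. Named genes are the members, the other genes of the cycle, up to 3 genes a list whose genotype ranges did not overlap, and the 5 nearest genes by root mean square difference for members with an SD over 0.5 (log2). The fit was tested on simulated data. Alternatives were a pseudocount of 1 TPM, no filter or a minimum of 1 TPM, median of ratios scaling, no trend, single transcripts, leaving out each mouse, the replicate block, sex as covariate or only factor, and a threshold of 0.05.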

Additional observations from a re-analysis of the deposited data

Results flagged for a closer look

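The genotype difference of 2 members pointed opposite ways in the sexes. For *Elovl3*, both pairs of males had the Alb-Cre+ mouse higher and the pair of females had it lower, and the genotype difference in females minus that in males was -2.23 (SE 0.83) on the log2 scale, with an adjusted p of 0.775 in limma. For *Elovl7*, both pairs of males had the Alb-Cre+ mouse lower and the pair of females had it higher, a difference of 1.47 (SE 0.46) with the same adjusted p of 0.775. Each rests on 1 female of each genotype, and *Elovl7* was under 1 TPM in every mouse. In Alb-Cre+ mouse 2, 50.1% of the *Elovl7* TPM was assigned to a nonsense-mediated decay transcript that was at 0 in every male. The coding transcript of *Elovl7* was at 0.282 TPM in that mouse and at 0.213 TPM in control 2.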

How the results depend on the processing

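Between the genotypes, 0 genes passed an adjusted p of 0.01 in limma under all settings but 1, and 250 had an unadjusted p under 0.05. Leaving out each mouse gave 0 to 1 genes, the 1 being *Gm10240* without Alb-Cre+ mouse 1, a gene named after its values were seen. With the replicate block 666 genes had an unadjusted p under 0.05, against 250 without it, and 775 did with the block and median of ratios scaling together. The block changed no call on a member. Over 15 alternatives *Elovl2* kept its direction, from -1.99 to -1.66, with adjusted p from 0.0564 to 1, and *Elovl5* did so from -1.81 to -0.91, with adjusted p from 0.281 to 1. *Elovl6* (0.20 to 0.43), *Hsd17b12* and *Tecr* also kept theirs, while the sign turned in 4 alternatives for *Elovl1*, in 3 of 14 for *Elovl7*, in 3 each for *Hacd2* and *Hacd3* and in 1 for *Elovl3*, whose estimates ran from -0.18 to 2.74.

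Between the sexes, 73 genes passed. Settings that moved this count by over 1.5 times were no filter on low values (28), limma without the trend (31), sex as the only factor (286) and a threshold of 0.05 (1019), and leaving out each mouse gave 3 to 51. The 3 genes without either female were *Ddx3y*, *Eif2s3y* and *Sult2a2*, and fewer samples were then compared. Of the called genes 35.6% were higher in males, and 41.9% after median of ratios scaling. *Elovl3* stayed positive, from 2.99 to 5.22, with adjusted p from 0.0128 to 0.209, the highest without Alb-Cre+ mouse 2. When single mice were left out, the sex difference ran from -0.092 to 0.18 for *Tecr*, below zero without Alb-Cre+ mouse 1 (-0.062) or mouse 2 (-0.092), and from -0.034 to 0.46 for *Elovl6*, below zero without control 2. The cause was not tested. The *Elovl2* share difference was -14.7 percentage points from the most abundant transcripts.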
